A study of Mus musculus with 20 samples.

Results

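The response of macrophages to LPS and IFNγ was described in cells labelled iNOS KO, a knockout of inducible nitric oxide synthase (iNOS), which makes nitric oxide (NO•). It rests on 6 of the 20 RNA-seq libraries of the series: 3 of unstimulated iNOS KO cells and 3 of iNOS KO cells treated for 48 h with LPS at 50 ng/ml and IFNγ at 30 ng/ml. The libraries were selected by their labels, which name the cells BMDM (bone marrow-derived macrophages), and a gene was kept when its counts summed to 10 or more over all 12 libraries so labelled, which left 18691 of 56748 genes. The other 6 of those libraries, wildtype cells in the same states (3 each), entered the fit and were used to test where the responses of the genotypes differed. The doses are those the labels give for BMDM. The methods of the study name RAW264.7, a line of mouse macrophages, as the cells sequenced, with biological replicates, and for that line the labels give IFNγ at 10 ng/ml, so the IFNγ dose of these libraries is unsettled. In addition, the sources used here do not say whether the iNOS KO cells are 1 clone. Below, a gene rose or fell when edgeR's quasi-likelihood test gave an adjusted p under 0.05 and its log2 fold change lay past 1 in either direction. CPM are counts scaled to library size by TMM, and log2 values are differences, with ± giving an approximate standard error.

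LPS, a component of the outer membrane of Gram-negative bacteria, signals through the receptor Tlr4 and activates the transcription factor NF-κB. IFNγ signals through Jak kinases to STAT factors, whose dimers bind GAS elements, and through IRF factors that bind interferon-stimulated response elements (ISRE). In murine macrophages the combination strongly induces iNOS, which makes NO• from arginine. NO• binds heme, reacts with protein thiols and iron-sulfur clusters, and inhibits mitochondrial respiration and ribonucleotide reductase. iNOS KO cells are used to read the response to LPS and IFNγ apart from this source of NO•.

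Promoter sequences are shown first, with matches to motif letters marked, and binding was not measured. Shown are those of guanylate-binding protein (GBP) genes, which gave several of the largest increases, and of the IFNγ-responsive factor Irf1. A pair of replication genes, taken from a list that differed between genotypes, is also shown. Each sequence is the 200 bases before a RefSeq start of the gene (GRCm38.p6), 5′ to 3′ on the strand of the gene. Only promoters with a motif in these bases are shown, so the presence of a motif in each piece was set by that choice. Gbp3 and Irf1 have 2 RefSeq promoters each, and those without a motif were left out. Capitals mark ISRE (GAAA repeated after any 2 bases), GAS (TTCNNNGAA), kappa-B or E2F (TTTGGCGC or TTTCCCGC) motifs, found on either strand, and overlapping motifs run together.
Gbp2b, chr3:142594647-142594846 (+ strand): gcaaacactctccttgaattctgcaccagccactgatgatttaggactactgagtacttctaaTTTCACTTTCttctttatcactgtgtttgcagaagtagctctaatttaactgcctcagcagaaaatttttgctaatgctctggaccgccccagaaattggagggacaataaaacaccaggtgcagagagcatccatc
Gbp2, chr3:142620463-142620662 (+ strand): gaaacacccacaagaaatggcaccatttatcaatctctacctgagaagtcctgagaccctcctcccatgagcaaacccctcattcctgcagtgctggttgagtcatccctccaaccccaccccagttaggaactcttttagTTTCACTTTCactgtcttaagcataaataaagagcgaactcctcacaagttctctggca
Gbp3, chr3:142559844-142560043 (+ strand): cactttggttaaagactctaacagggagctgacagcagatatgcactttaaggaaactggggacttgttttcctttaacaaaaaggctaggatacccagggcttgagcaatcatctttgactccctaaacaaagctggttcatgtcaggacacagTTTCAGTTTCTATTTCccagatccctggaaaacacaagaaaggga
Gbp5, chr3:142496734-142496933 (+ strand): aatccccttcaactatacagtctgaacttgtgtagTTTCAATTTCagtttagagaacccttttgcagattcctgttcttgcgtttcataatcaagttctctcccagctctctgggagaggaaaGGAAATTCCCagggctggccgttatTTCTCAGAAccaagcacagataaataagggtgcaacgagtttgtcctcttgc
Gbp7, chr3:142530136-142530335 (+ strand): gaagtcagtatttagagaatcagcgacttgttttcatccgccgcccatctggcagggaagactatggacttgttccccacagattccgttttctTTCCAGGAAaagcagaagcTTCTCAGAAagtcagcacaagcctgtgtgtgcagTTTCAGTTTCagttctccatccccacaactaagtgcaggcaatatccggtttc
Irf1, chr11:53769814-53770013 (+ strand): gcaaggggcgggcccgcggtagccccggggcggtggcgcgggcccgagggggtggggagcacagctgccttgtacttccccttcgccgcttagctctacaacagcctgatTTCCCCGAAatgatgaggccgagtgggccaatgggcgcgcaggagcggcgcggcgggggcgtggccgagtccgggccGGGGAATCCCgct
Mcm5, chr8:75109309-75109508 (+ strand): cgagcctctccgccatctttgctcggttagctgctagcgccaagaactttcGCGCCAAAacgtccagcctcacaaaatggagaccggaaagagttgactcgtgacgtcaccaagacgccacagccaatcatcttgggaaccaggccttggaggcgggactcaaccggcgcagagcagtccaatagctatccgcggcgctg
Mcm6, chr1:128359706-128359905 (- strand): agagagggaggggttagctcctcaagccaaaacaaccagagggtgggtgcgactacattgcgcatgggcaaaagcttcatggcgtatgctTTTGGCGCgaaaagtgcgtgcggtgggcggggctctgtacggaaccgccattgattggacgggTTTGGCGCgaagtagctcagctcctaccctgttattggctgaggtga
All 5 GBP pieces hold an ISRE, those of Gbp5 and Gbp7 also hold GAS, Irf1 holds GAS and kappa-B without an ISRE, and Mcm5 and Mcm6 hold E2F motifs.

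Depth was similar in the 6 libraries, with 17150386 to 17346579 counts in unstimulated and 15614050 to 18878107 in stimulated iNOS KO cells. Macrophage markers were present (Csf1r at 654, 669 and 661 CPM unstimulated, Cd68 at 565, 609 and 564), and of 18 such markers 9 rose and 0 fell on stimulation, where 14% of all genes rose and 8.78% fell. Pycard, the inflammasome adaptor that RAW264.7 cells are known to lack, was at no more than 0.321 CPM in any of the 6, and Xist did not reach the count minimum in the 12 libraries, whereas the Y-linked Ddx3y, Eif2s3y, Kdm5d and Uty were expressed. Summed over their lists in stimulated iNOS KO cells, markers of neutrophils came to 41.1 CPM, almost all from S100a8, those of lymphocytes to 8.33 CPM and those of fibroblasts to 14.9 CPM, almost all from Dcn. The defining Ly6g, Elane, Cd3e and Col1a1 did not reach the count minimum. Stimulated replicate B stood apart from its group: it lay at 29.2 on the third principal component (3.43% of the variance) against -11.6 and -14.5, had 0.741% mitochondrial counts against 1.01% and 1.14%, and was higher than its replicates by a median log2 of 0.13 in genes of the lowest length quartile (under 3041 bases) and lower by 0.14 in the highest quartile (over 7211 bases). Without it 2612 genes rose and 1396 fell in iNOS KO cells, against 2616 and 1642 with it, and counts over the lists below that moved by more than 1.5 times are given both ways.

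The targeted gene was read first. Nos2 (ENSMUSG00000020826, chromosome 11, 78811613 to 78851080 as the table lists it) had 0 counts in each unstimulated iNOS KO library and was at 870.5, 891 and 912 CPM in the stimulated ones. It thus rose at least 6070-fold, counted against 3 counts per library. In wildtype cells it went from a mean of 1.41 to 11070 CPM, so every stimulated iNOS KO library lay far below every stimulated wildtype library. A count over the whole gene does not show whether the transcript still encodes an active enzyme, and the position of the disruption is not given in the sources used here. Of 14 genes that use arginine, make NO• or make its cofactor tetrahydrobiopterin, 6 rose and 0 fell in iNOS KO cells. Odc1, which decarboxylates ornithine in polyamine synthesis, was at 619.9, 675 and 626 CPM before and 2399, 2762 and 2555 CPM after stimulation, a log2 change of 2.01 ± 0.06, while Spr, an enzyme of tetrahydrobiopterin synthesis, had a log2 change of -0.56 ± 0.09, short of the fold limit.

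Stimulation of iNOS KO cells raised 2616 genes, 14% of those tested, and lowered 1642, or 8.78%. The libraries of the groups did not overlap for 2533 of the genes that rose and 1607 of those that fell. A call already favours groups that do not overlap, and the share over all genes is not given. These counts therefore add no support of their own. Increases were larger than decreases: 1159 genes rose by more than 3 on the log2 scale and 237 fell by as much, and past 5 the numbers were 537 and 35. The genes that rose took 8.97% to 9.12% of all counts in the unstimulated libraries and 30.5% to 31.1% in the stimulated ones, and the genes that fell went from 5.5%–5.86% to 1.44%–1.74%. Before stimulation 814 of the genes that rose, 484 of them protein-coding, were at 3 counts or fewer in every library. For 201 of the 814 the increase was at least 10-fold. After stimulation 338 of the genes that fell were at 3 counts or fewer in every library, and for 3 of these the decrease was at least 10-fold. Among 2603 long noncoding RNAs tested, 423 rose and 262 fell. In the lowest length quartile of well-expressed protein-coding genes 15.2% rose and 3.45% fell, against 6.81% and 9.65% in the highest. Without stimulated replicate B, which differed from its replicates by gene length in the same direction, 2612 genes rose and 1396 fell.

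**Figure D1:**
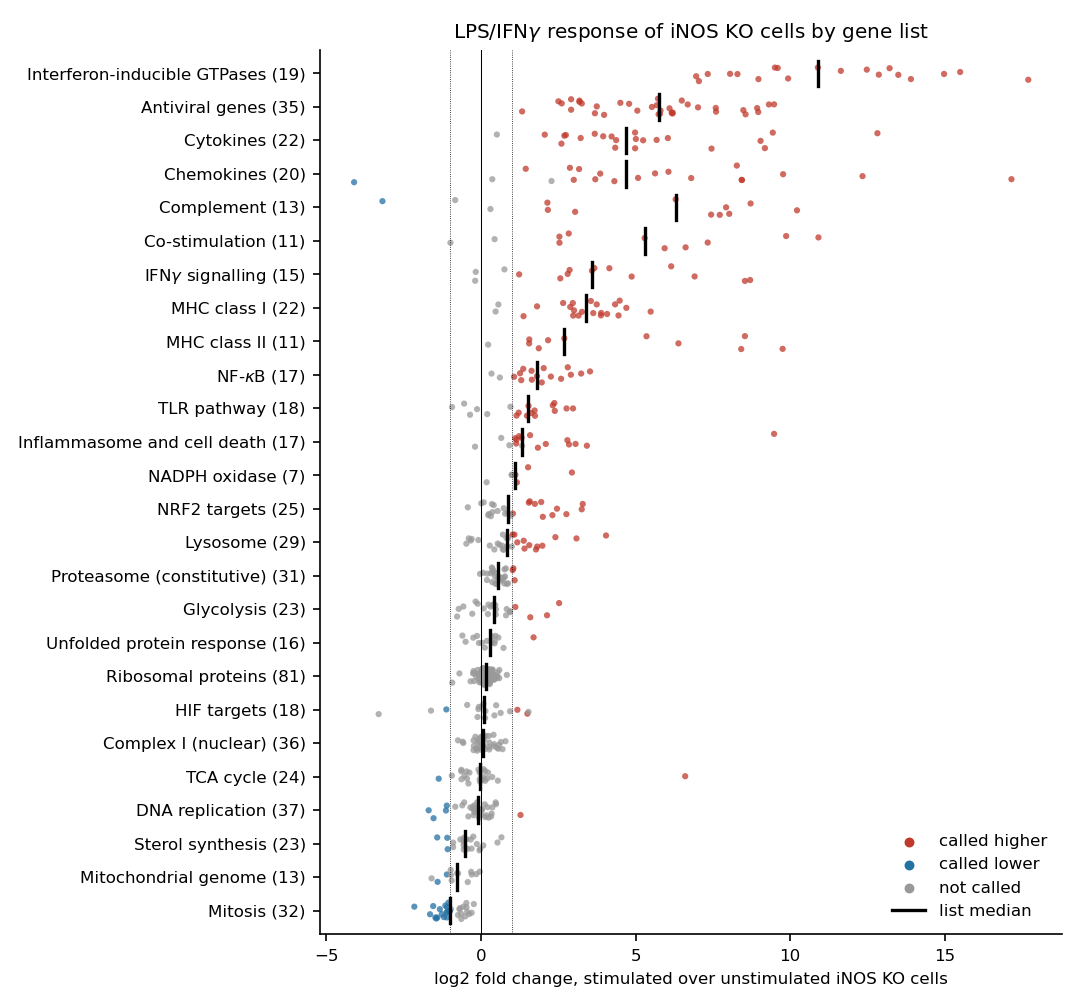
Log2 fold change on stimulation of iNOS KO cells (x axis) for the members of 26 gene lists (y axis, number tested in brackets), with each point a gene, red for genes that rose, blue for genes that fell and grey for the rest, a bar at each list's median and dotted lines at the fold limit. The lists run from interferon-inducible GTPases, at a median of 10.9, to mitosis genes, at -1.02, and most metabolic and ribosomal lists lie between the dotted lines.

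The largest increases included interferon-inducible GTPases, chemokines and other secreted proteins. Taking protein-coding genes whose mean log2 CPM exceeded 3 and whose groups did not overlap, the 15 largest were Gbp4, Cxcl9, Serpina3f, Nos2, Iigp1, Gbp5, Gbp2b, Gbp2, Lcn2, Upp1, Gbp3, Slamf8, Cxcl11, Gbp7 and Calhm6. Gbp4 had 0 counts in all 3 unstimulated libraries and stood at 1698, 1195 and 1756 CPM after stimulation, at least 10600-fold higher. Cxcl9, a chemokine that attracts activated T cells through Cxcr3, also went from 0 counts to 1060, 977 and 1151 CPM, at least 7240-fold. Serpina3f, a serine protease inhibitor, went from 0 counts to 983, 989.7 and 1087 CPM. For these genes nothing was counted before stimulation, and each stimulated library held at least 977 CPM. Lcn2, which binds bacterial siderophores, was at 0.0481, 0.199 and 0.0488 CPM before and 347, 347 and 351 CPM after stimulation (11.69 ± 0.20). Upp1, uridine phosphorylase, went from 0.578, 0.448 and 0.342 to 641, 757 and 664 CPM (10.53 ± 0.14), and Slamf8, a receptor of the SLAM family, from 0.193, 0.498 and 0.342 to 306, 342 and 332 CPM. Cxcl11, another Cxcr3 ligand, went from 0.241, 0.448 and 0.146 to 243, 231 and 272 CPM, and Calhm6 from 0.481, 0.199 and 0.195 to 200.2, 227 and 220.1 CPM. In the plot of single genes the stimulated libraries lie far to the right of the unstimulated ones for all 15.

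**Figure D2:**
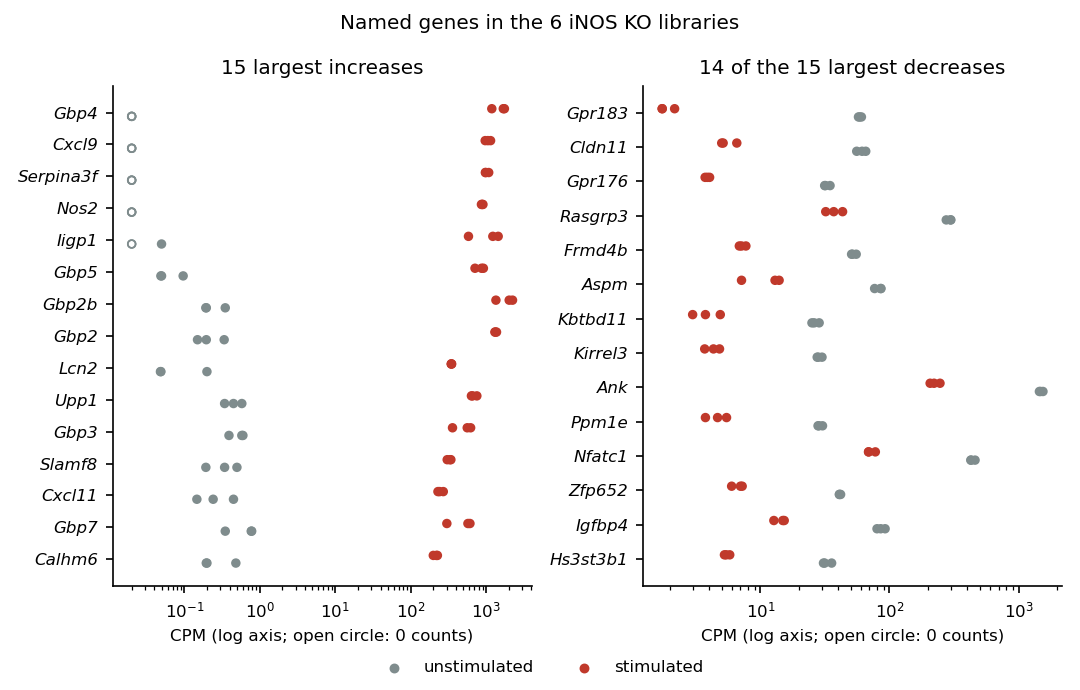
CPM on a log axis in each unstimulated (grey) and stimulated (red) iNOS KO library for the 15 largest increases (left) and 14 of the 15 largest decreases (right), with open circles for libraries with 0 counts. Only genes whose groups do not overlap were eligible, and for Gbp4, Cxcl9, Serpina3f and Nos2 all 3 unstimulated libraries held 0 counts.

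All 19 interferon-inducible GTPases tested rose, with a median log2 change of 10.9 (9.51 with genes near 0 set to their bound), beside 0.00 over all genes. These proteins attack the vacuoles that hold intracellular pathogens. Irgm1, which had the smallest increase of the list, went from 15.7, 14.3 and 15.2 to 1926, 1649 and 2047 CPM (6.96 ± 0.10). Gbp2b, the member with the highest CPM, went from 0.193, 0.348 and 0.195 to 2032, 1355 and 2250 CPM, and Gbp2 from 0.337, 0.149 and 0.195 to 1336, 1313 and 1380 CPM. Stimulated replicate B was the lowest of its group for Gbp2b, Gbp3, Gbp4, Gbp5 and Gbp7 and close to its replicates for Gbp2. Iigp1 was also lowest there, at 1233, 586 and 1452 CPM in replicates A, B and C. GBP and IRG genes are near-identical copies in places, so reads may have been split between members and the single values are uncertain.

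Promoters of these genes could be examined for 11451 of 18666 gene symbols, with 14495 promoters from 250 bases before to 50 after the start in RefSeq GRCm38.p6. An ISRE was present in 10 of 12 GTPase promoters (83.3%) and in 17 of 30 promoters of antiviral genes (56.7%). Over all promoters the share was 3.31%, among genes that rose 7.47%, among those that rose by more than 5 it was 15.6%, and among genes that fell 1.98%. GAS was found in 50.0% of GTPase promoters, 9.55% of promoters of genes that rose, 5.80% of those that fell and 7.0% of all. The kappa-B motif was in 10.2% of all promoters and in 58.8% of those of NF-κB pathway genes. The E2F motif was in 2.70% of all promoters, 1.29% of those that rose, 3.51% of those that fell and 32.4% of those of replication genes, but in 0 of 27 promoters of mitotic genes. The antioxidant response element (ARE, TGACNNNGC) was in 14% of promoters of genes that rose, 14.6% of those that fell, 14.2% of all and 37.9% of those of NRF2 targets. These shares describe letters in the window and carry no test.

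Most genes of IFNγ signalling and all antiviral genes rose. Of 15 signalling genes 12 rose (median 3.59), and Batf2, a transcription factor induced by IFNγ, went from 1.40, 1.24 and 1.42 to 545, 605 and 551 CPM (8.70 ± 0.11). Irf7, which drives type I interferon genes, went from 13.2, 15.4 and 15.03 to 975, 1184 and 937 CPM (6.15 ± 0.13). Ifngr2, a chain of the IFNγ receptor, had a log2 change of -0.19 ± 0.07. All 35 antiviral genes rose (median 5.74). Zbp1, a sensor of Z-form nucleic acid, gave the largest change, from 0.337, 0.398 and 0.683 to 322, 372 and 333 CPM (9.48 ± 0.14), and Eif2ak2, the kinase PKR, the smallest, from 51.8, 46.2 and 47.4 to 139, 73.8 and 152 CPM (1.33 ± 0.18). Oasl1 reached 1537, 1948 and 1623 CPM, and Rsad2, the radical SAM enzyme viperin, went from 1.88, 1.79 and 1.56 to 1168, 925 and 1246 CPM. Among SOCS genes, which dampen cytokine receptors, 3 of 7 rose (Cish, Socs1 and Socs3). Socs1 went from 1.93, 1.84 and 1.02 to 129, 158 and 117 CPM (6.39 ± 0.18) and Socs3 from 25.5, 25.7 and 26.8 to 1226, 1557 and 1150 CPM (5.66 ± 0.12), while Socs6 had a log2 change of -0.54 ± 0.11.

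Most antigen presentation genes of both MHC classes rose. Of 22 MHC class I genes 20 rose (median 3.41), led by the peptide transporter subunit Tap1, from 19.5, 18.02 and 18.9 to 777, 941 and 811 CPM (5.49 ± 0.09). B2m, the light chain of class I molecules, went from 256, 247 and 250 to 2308, 2051 and 2335 CPM, and the class I heavy chain H2-D1 from 283, 293 and 292 to 2198, 2493 and 2151 CPM. Pdia3, a chaperone of the loading complex, had a log2 change of 0.47 ± 0.07. Of 11 class II genes 10 rose (median 2.69), and H2-Aa, a classical class II chain, had 0 counts before stimulation and 6.23, 6.78 and 5.85 CPM after it, at least 42.9-fold. Ctss, the protease that trims the invariant chain, went from 681, 653 and 672 to 2016, 1836 and 2061 CPM (1.56 ± 0.06), and Ifi30, a lysosomal thiol reductase, had a log2 change of 0.23 ± 0.06. The proteasome's 31 constitutive genes shifted less: Psma5, Psmb6 and Psmd8 rose and 0 fell (1 rose without stimulated replicate B), 29 passed the adjusted p alone in the upward direction, where 27.3% of all genes did, and the median was 0.53. Psma5 had a log2 change of 1.09 ± 0.07 and Psmd2 one of 0.40 ± 0.06.

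Most secreted mediators rose. Of 22 cytokines 21 rose and 0 fell (median 4.68, or 3.83 at the bounds), and of 20 chemokines 17 rose and 1 fell (median 4.70, or 3.77). Il6 went from 0 counts to 55.4, 32.7 and 69.4 CPM, at least 358-fold, with replicate B the lowest. Il1rn, the antagonist of the IL-1 receptor and the cytokine-list gene with the highest CPM, went from 151, 159 and 143 to 3095, 2990 and 3270 CPM (4.37 ± 0.07), and Tgfb1 had a log2 change of 0.51 ± 0.06. Ccl3, a chemokine that draws monocytes and T cells, went from 278, 309 and 271 to 2218, 2211 and 2424 CPM (3.0 ± 0.08) and Ccl4 from 106, 122 and 109.8 to 1567, 1676 and 1638 CPM (3.85 ± 0.10). Ccl5 went from 1.54, 1.39 and 1.27 to 447, 502 and 506 CPM (8.43 ± 0.11). Cxcl14 was the chemokine that fell, from 5.63, 5.38 and 7.27 to 0.643, 0.288 and 0.119 CPM (-4.11 ± 0.29). Of 11 co-stimulatory genes 9 rose and 0 fell (1 fell without stimulated replicate B). Slamf7 went from 0.0481, 0.0498 and 0.146 to 183, 128 and 202 CPM, at least 1170-fold, and the adhesion molecule Icam1 from 156, 173 and 173 to 901, 1075 and 937 CPM (2.54 ± 0.08), while Cd276 had a log2 change of -0.99 ± 0.10.

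Genes of the LPS response rose together with inhibitors of it. Of 17 NF-κB pathway genes 15 rose (median 1.81). Nfkbiz, an atypical nuclear IκB, went from 63.6, 50.6 and 59.7 to 686, 706 and 611 CPM (3.52 ± 0.11), and Nfkbia, which encodes IκBα, from 230.2, 228 and 225 to 754, 886 and 759.5 CPM (1.81 ± 0.07). Tnip3, another inhibitor of the pathway, overlapped between groups (0.34 ± 0.12). Of 18 Toll-like receptor pathway genes 12 rose and 0 fell. The LPS co-receptor Cd14 went from 941, 1058 and 983 to 2728, 3157 and 2761 CPM (1.54 ± 0.07) and Irak3, an inhibitory kinase-like protein, from 11.9, 14.5 and 13.7 to 108, 103 and 105 CPM (2.98 ± 0.09). Tlr4 itself was at 69.9, 56.8 and 72.8 CPM before and 42.2, 19.9 and 41.5 CPM after stimulation, a change of -0.94 ± 0.19 that stayed inside the fold limit but passed it without unstimulated replicate B (-1.04) or stimulated replicate A (-1.12) or C (-1.09). Of 17 inflammasome and cell death genes 13 rose, among them Nlrp3, from 231, 265.0 and 241 to 1617, 1874 and 1611 CPM (2.79 ± 0.07), while Gsdme, a gasdermin, overlapped between groups (-0.20 ± 0.12). Cybb, the catalytic subunit of the phagocyte NADPH oxidase, went from 326, 339 and 327 to 2751, 1974 and 2887 CPM (2.94 ± 0.11), with 4 of 7 oxidase genes higher, Ncf1 and Rac2 among them, and Rac1 had a log2 change of 0.18 ± 0.05. Ptgs2, the inducible cyclooxygenase, went from 31.1, 31.8 and 28.4 to 3017, 2007 and 3496 CPM (6.54 ± 0.17), and of 14 eicosanoid genes 3 rose (Ptgs2, Ptges and Tbxas1) and 2 fell (Ptgs1 and Alox5). The constitutive form Ptgs1 went from 0.867, 0.846 and 0.586 CPM to at most 0.0597 CPM.

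Most complement genes and clearance receptors rose. Of 13 complement genes 10 rose, with C3 going from 7.80, 8.51 and 7.71 to 608, 661 and 618 CPM (6.29 ± 0.09) and C1qb, a chain of the classical initiator C1q, from 0 counts to 8.16, 9.01 and 8.83 CPM. Of 24 clearance receptors 17 rose and 1 fell, or 17 and 2 without stimulated replicate B. The high-affinity IgG receptor Fcgr1 went from 5.05, 4.23 and 4.15 to 201, 218 and 186 CPM (5.49 ± 0.11) and the lectin Clec4e from 216, 192 and 214 to 2331, 1517 and 2441 CPM (3.34 ± 0.13), whereas the lipid receptor Trem2 fell from 279.9, 294 and 293 to 135, 144 and 132 CPM (-1.08 ± 0.07).

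Some of the genes that rose were neighbours, which was tallied after the values had been seen. Runs of at least 4 consecutive tested protein-coding genes that moved the same way numbered 55 upward, with 307 genes (15.7% of the 1955 protein-coding genes that rose), and 5 downward, with 23. The longest, with 14 genes and a median of 4.11, lay in the MHC region of chromosome 17 and ran from Col11a2 through Psmb9, Tap1, H2-Ab1 and H2-Aa to H2-Ea. Runs of 11 held the Ifi200 genes of chromosome 1 (median 5.80) and the Irgm1, Tgtp1 and Ifi47 genes of chromosome 11 (6.96). Other runs held Ccl5, Ccl9, Ccl6, Ccl3 and Ccl4 on chromosome 11 (10 genes, 4.38), Ms4a genes on chromosome 19 (9 genes, 5.08), Gbp genes on chromosome 5 (8 genes, 10.2) and Ifit genes on chromosome 19 (6 genes, 8.35). The longest run downward was of 7 genes on chromosome 7, among them Zfp619, Zfp788, Zfp141 and Zfp975 (-1.38). Many neighbours are paralogs whose shared reads may have been divided among them.

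Transcription factors had more decreases than increases: of 945 assigned to a family in the deposited table, 100 rose and 182 fell, with a median of -0.34. The C2H2 zinc fingers held 112 of these decreases and 19 of the increases. In the other families together increases outnumbered decreases. Over all protein-coding genes tested 14.8% rose and 8.88% fell. The families were also compared after the values had been seen. All 5 IRF genes that changed rose (Irf1, Irf4, Irf7, Irf8 and Irf9 of 9 tested, median 2.74), as did 4 of 6 STAT genes, among them Stat2 and Stat3, and 4 of 7 SAND genes, among them Sp100, Sp110 and Sp140 (median 3.67). Of 49 bZIP factors 19 rose and 5 fell. In the Rel homology family Nfkb1, Nfkb2, Rel and Rela rose and Nfatc1, Nfatc2 and Nfatc3 fell (2 of the family fell without stimulated replicate B). The C2H2 zinc fingers, the most numerous family, had 19 of 439 higher and 112 lower (median -0.56), or 22 and 82 without stimulated replicate B. Of 10 genes of the E2F family 0 rose and 4 fell (E2f2, E2f7, E2f8 and Tfdp2).

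The largest decreases were smaller than the largest increases and included receptors, adhesion molecules and signalling genes. Under the same conditions 14 of the 15 largest were Gpr183, Cldn11, Gpr176, Rasgrp3, Frmd4b, Aspm, Kbtbd11, Kirrel3, Ank, Ppm1e, Nfatc1, Zfp652, Igfbp4 and Hs3st3b1, from -4.98 to -2.57. Gpr183, the receptor for oxysterols that guides immune cell positioning, went from 60.6, 57.5 and 58.8 to 1.74, 2.16 and 1.73 CPM (-4.98 ± 0.10). Cldn11, a tight junction protein, went from 55.8, 65.5 and 61.3 to 5.14, 6.56 and 5.01 CPM, and Rasgrp3, an exchange factor for Ras and Rap, from 299, 276 and 297 to 43.3, 32.1 and 37 CPM. Ank, a transmembrane protein that governs pyrophosphate outside the cell, had the highest CPM of the 15, at 1452, 1547 and 1480 before and 207, 246 and 222 after stimulation (-2.73 ± 0.07). Nfatc1, the master factor of osteoclast formation, went from 427, 460.5 and 429 to 69.03, 77.7 and 68.8 CPM (-2.61 ± 0.08), and Atp6v0d2, a V-ATPase subunit prominent in osteoclasts, from 142, 131 and 139 to 30.1, 21.9 and 33.2 CPM (-2.27 ± 0.11). Igfbp4, which binds insulin-like growth factors, went from 80.1, 92.5 and 85.5 to 14.9, 15.3 and 12.7 CPM. In each case the highest stimulated library lay below the lowest unstimulated one, which was a condition of the choice for the 14.

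Most genes of core metabolism stayed inside the fold limit. Acod1, which makes itaconate from a TCA cycle intermediate, went from 107, 112 and 105 to 10270, 10750 and 10480 CPM (6.6 ± 0.06), and per length its mean went from 41.2 to 4002 RPKM, among the highest of all protein-coding genes beside Lyz2 (5496 RPKM), Ftl1 (4797) and Fth1 (3690). It was the only one of 24 TCA cycle genes that rose, and Idh2, the mitochondrial NADP-dependent isocitrate dehydrogenase, the only one that fell, from 145, 144 and 145 to 52.9, 64.2 and 50.9 CPM (-1.37 ± 0.08). The list's median was -0.05, and 5 of its genes passed the adjusted p alone upward and 9 downward. Of 23 glycolysis genes 4 rose (Slc2a1, Hk3, Eno2 and Gapdh) and 0 fell, with a median of 0.41, while 16 passed the adjusted p alone upward and 5 downward, where 27.3% and 24.6% of all genes did. Pkm, the member with the highest CPM, went from 3796, 4194 and 3925 to 4858, 5725 and 4792 CPM (0.37 ± 0.07) and Aldoc, an aldolase, had a log2 change of -0.78 ± 0.08. The call of Gapdh rested on 1 library: it was at 12.1, 14.3 and 12.5 CPM before and 13.1, 175 and 37.1 CPM after stimulation, with a log2 change of 2.52 that was 0.97 (edgeR adjusted p = 0.317) without replicate B and 2.02 (adjusted p = 0.0691) with the replicate letter as a block. Gapdh has many processed pseudogenes that can share its reads. Of 36 nuclear complex I genes 0 rose and 0 fell, with changes from -0.75 for Ndufs1 to 0.79 for Ndufa3. Of the 13 protein-coding mitochondrial genes 0 rose and 2 fell (mt-Nd1, -1.11 ± 0.09, and mt-Cytb, -1.41 ± 0.15), with a median of -0.77 (2 fell and the median was -0.61 without stimulated replicate B). The mitochondrially encoded mt-Co1 was at 6723, 6780 and 6652 CPM before and 6895, 4838 and 7818 CPM after stimulation.

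Lysosomal, iron and antioxidant lists had more increases than decreases, as did all genes, of which 14% rose and 8.78% fell. Of 29 lysosomal genes 12 rose and 0 fell (median 0.84). Ctsb, the cathepsin with the highest CPM, went from 3093, 3268 and 3162 to 5469, 6023 and 5581 CPM, a change of 0.84 ± 0.06 inside the fold limit. Of 16 V-ATPase genes Atp6v1e1 rose (1.12 ± 0.07) and Atp6v0d2 fell. Of 17 metal-handling genes 10 rose and 1 fell, or 10 and 0 without stimulated replicate B. The ferritin heavy chain Fth1 went from 3791, 3912 and 3798 to 12470, 13750 and 12190 CPM (1.74 ± 0.06). Tfrc, the transferrin receptor, fell from 510.5, 465 and 502 to 259, 120.4 and 299 CPM (-1.12 ± 0.21), but by 0.82 without replicate B, inside the fold limit. Of 25 NRF2 targets 11 rose and 0 fell, with a median of 0.86. By the adjusted p alone 21 passed in the upward direction, where 27.3% of all genes did. Hmox1, heme oxygenase 1, went from 138, 134 and 141 to 1280, 1414 and 1247 CPM (3.26 ± 0.07) and Maff, a small Maf factor, from 14.5, 13.4 and 13.9 to 126, 152 and 131 CPM (3.29 ± 0.09). Akr1a1, an aldo-keto reductase that also reduces S-nitroso-coenzyme A, went from 539, 569 and 534 to 1564, 1795 and 1534 CPM (1.57 ± 0.07). Of the subunits of the enzyme that starts glutathione synthesis, the modifier Gclm had a log2 change of 0.86 ± 0.06 and the catalytic Gclc one of -0.43 ± 0.07, in opposite directions and both inside the fold limit. In the integrated stress response list 8 of 17 rose and 1 fell, led by Atf3, from 60.04, 54.2 and 55.8 to 676, 774 and 719 CPM (3.67 ± 0.08). Of 16 endoplasmic reticulum chaperone genes only Dnajb9 rose (1.70 ± 0.17), and Hspa5, the main chaperone BiP, had a log2 change of 0.44 ± 0.05.

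Most DNA replication genes stayed inside the fold limit, whereas 18 of 32 mitotic genes fell. Of 37 DNA replication genes 1 rose (Pola2) and 4 fell (Gins3, Tk1, Ccne2 and E2f2), with a median of -0.11. Over all genes 14% rose and 8.78% fell. By the adjusted p alone 8 of the 37 were higher and 15 lower, where 27.3% and 24.6% of all genes were. Without stimulated replicate B these were 8 and 18. Rrm1, the large subunit of ribonucleotide reductase, went from 330.3, 340.4 and 328 to 294, 302 and 284 CPM (-0.18 ± 0.06), inside the fold limit. Pola2, a subunit of the polymerase that primes replication, went from 61.9, 65.1 and 65.7 to 144, 170 and 152 CPM, and Gins3 of the replicative helicase from 27.1, 22.4 and 25.3 to 8.48, 7.28 and 7.28 CPM. Mitotic genes fell more: 18 of 32 fell and 0 rose, all 32 passed the adjusted p alone, where 24.6% of all genes did, and the median was -1.02. Without stimulated replicate B 14 fell and the median was -0.88. Top2a, the topoisomerase that untangles chromosomes, went from 456, 422 and 450.1 to 305, 170.3 and 316 CPM (-0.75 ± 0.15). The kinetochore gene Cenpf fell from 111, 82.7 and 103 to 27.4, 12.3 and 26.2 CPM (-2.16 ± 0.21), and Incenp, of the chromosomal passenger complex, had a log2 change of -0.23 ± 0.08. The proliferation marker Mki67 fell from 648, 522 and 616 to 282, 148 and 238 CPM. In bulk RNA, fewer cycling cells and less transcript per cycling cell cannot be told apart. Of 13 genes of G1 control 3 rose (Ccnd2, Cdkn1a and Myc) and 3 fell (Ccnd1, Cdkn1b and Cdkn2c). Cdkn1a, the cell cycle inhibitor p21, went from 174, 206 and 192 to 488, 593 and 511 CPM (1.48 ± 0.09) and Cdkn1b, the inhibitor p27, from 15.7, 14.98 and 16.1 to 6.75, 6.20 and 7.997 CPM (-1.16 ± 0.12).

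Most ribosomal and sterol genes stayed inside the fold limit. Of 81 cytosolic ribosomal protein genes 0 rose and 0 fell (median 0.17). By the adjusted p alone 32 were higher and 4 lower, where 27.3% and 24.6% of all genes were. Rpsa, the one with the highest CPM, was at 1355, 1479 and 1397 before and 1429, 1742 and 1446 after stimulation, with overlap between the groups, and the elongation factor Eef1a1 was at 7464, 7786 and 7507 CPM before and 8590, 9238 and 8783 CPM after stimulation. Of 23 genes of sterol synthesis and uptake 0 rose and 3 fell, where 14% and 8.78% of all genes did. By the adjusted p alone 2 were higher and 17 lower, and the median was -0.51. Fdps (-1.42 ± 0.21) and Stard4 (-1.08 ± 0.09) were among the genes that fell. Srebf2, which encodes the factor that controls the pathway, had a log2 change of -0.47 ± 0.08, and Insig1, which retains that factor in the endoplasmic reticulum, one of 0.66 ± 0.07.

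The wildtype response, measured in other libraries, was set beside that of iNOS KO cells. Wildtype cells raised 3684 genes (19.7%) and lowered 2927 (15.7%). Of the genes that rose in iNOS KO cells 2016 also rose in wildtype cells, 77.1% of the former and 54.7% of the latter. Among genes that fell 937 were shared, 57.1% and 32.0%. The median change of the shared increases was 2.94 in iNOS KO and 3.07 in wildtype cells, and that of the shared decreases -1.57 and -2.22. The difference between the responses, iNOS KO minus wildtype, was tested directly: it passed the same limits above 0 for 1745 genes (9.34%) and below 0 for 1064 (5.69%). For 2195 of the 2616 genes that rose in iNOS KO cells (83.9%) and 1189 of the 1642 that fell (72.4%) it did not pass, which does not show that those responses were equal. A further 581 genes rose in iNOS KO cells without passing in wildtype cells, but the difference itself passed for only 132 of them, and for 197 of the 689 such genes that fell. Named after their values were seen, Ctsc, Dusp2, Cth, Ifitm3 and C5ar1 were among the 132.

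The interferon, NF-κB and antiviral lists held some members whose response differed between genotypes. The difference passed for 1 of 15 IFNγ signalling genes (Irf8, 1.47) and 1 of 17 NF-κB genes (Bcl3, 1.13). It passed for 7 of 35 antiviral genes, above 0 for Ifi44, Ifitm3 and Phf11b and below 0 for Rsad2, Cmpk2, Oasl2 and Samd9l. By edgeR's adjusted p alone, with no fold limit, the difference lay above 0 for 12 antiviral, 5 NF-κB and 1 IFNγ signalling gene and below 0 for 7, 4 and 4, where 20% and 15.4% of all genes did. It passed for 0 of 19 GTPases and 0 of 11 MHC class II genes, and by the adjusted p alone for 3 of each, but 11 of these GTPases and 5 of these class II genes held 3 counts or fewer in every unstimulated iNOS KO library, where a difference that did not pass says little (it was -2.31 ± 1.05 for Gbp5). Without stimulated replicate B it passed for 1 gene of each list. After stimulation the GTPases summed to 12100 CPM in iNOS KO and 18500 CPM in wildtype cells, and Gbp2b was at means of 1879 and 4116 CPM. Single genes of these routes stood out. Lcn2 changed by 11.69 in iNOS KO and 7.78 in wildtype cells (difference 3.91 ± 0.66), Calhm6 by 9.49 and 6.80 (2.69 ± 0.35), Fcgr1 by 5.49 and 2.90 (2.59 ± 0.14), C3 by 6.29 and 4.66 (1.63 ± 0.11) and Cxcl11 by 9.77 and 8.14 (1.63 ± 0.56). The fold increase of each of these 5 was larger in iNOS KO than in wildtype cells, which follows from naming them for a difference above 0. Unstimulated levels enter these differences: the iNOS KO mean was below the wildtype mean for C3, Calhm6, Fcgr1 and Lcn2 and above it for Cxcl11. Means before stimulation were 8.01 and 20.0 CPM for C3 and 0.292 and 1.10 CPM for Calhm6. After stimulation C3 was at 629 CPM in iNOS KO and 506 CPM in wildtype cells. Smaller inductions in iNOS KO cells were those of Ccl5 (difference -2.35 ± 0.21), Rsad2 (-2.11 ± 0.22), the elastase gene Mmp12 (-3.74 ± 0.18), the growth factor Hbegf (-3.21 ± 0.19), Rgs1 (-2.31 ± 0.24) and the phosphatase Dusp14 (-2.19 ± 0.21). Mmp12 was at 3.27, 2.84 and 2.78 CPM before and 14.8, 11.03 and 16.2 CPM after stimulation in iNOS KO cells, and its wildtype mean went from 13.3 to 844 CPM. Atp6v0d2, Zfp469 and Hyal1 fell in iNOS KO cells and had log2 changes of 0.18, 0.07 and 1.07 in wildtype cells. Before stimulation Zfp469 was at a mean of 29.2 CPM in iNOS KO and 9.54 CPM in wildtype cells. Hmox1 rose less in iNOS KO cells (difference -1.23 ± 0.09). The changes of Akr1a1 (difference -0.405 ± 0.099) and Gclm (-0.58 ± 0.08) were also smaller in iNOS KO cells. Both differences were inside the fold limit, with edgeR adjusted p of 0.00384 and 1.82e-05. By the adjusted p alone the difference lay below 0 for 11 of 25 NRF2 targets and above 0 for 4.

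Replication, mitotic, ribosomal, sterol, chaperone and hypoxia-responsive lists differed in most of their members. The difference lay above 0 for 33 of 37 replication genes, whose median was -0.11 in iNOS KO and -3.90 in wildtype cells. For Rrm1 it was 3.99 ± 0.09, and stimulated wildtype libraries were at 17.4, 19.8 and 18.5 CPM against 294, 302 and 284 CPM in iNOS KO cells. It lay above 0 for all 32 mitotic genes, with medians of -1.02 and -5.61, where 9.34% of all genes did. Among 13 genes of G1 control it lay above 0 for 4 and below 0 for 0. By edgeR's adjusted p alone it was above 0 for 6 and below 0 for 3 of the 13, where 20% and 15.4% of all genes were. Ccna2, the cyclin of S phase and mitotic entry, fell to 78.3, 72.1 and 82.5 CPM in iNOS KO cells and to 0.554, 0.675 and 0.485 CPM in wildtype cells, Plk1, a mitotic kinase, to 44.4, 51.8 and 43.5 and 1.04, 0.540 and 0.416 CPM, and Cdc20, an activator of the anaphase-promoting complex, to 66.8, 77.9 and 62.2 and 0.693, 1.22 and 1.25 CPM. Each of these stimulated iNOS KO libraries lay above every stimulated wildtype library. Ccna2, Plk1 and Cdc20 were named for the size of their difference, so this separation adds no support of its own. For ribosomal proteins the difference lay above 0 for 64 of 81 genes (medians 0.17 and -1.34), for sterol genes 16 of 23 (-0.51 and -1.48) and for endoplasmic reticulum chaperones 10 of 16 (0.28 and -1.28). Eef1a1 had a log2 change of 0.23 in iNOS KO and of -2.38 in wildtype cells (difference 2.61 ± 0.08). The difference was below 0 for 12 of 18 hypoxia-responsive genes outside glycolysis, with medians of 0.10 and 1.92. In iNOS KO cells Adm and Ddit4 rose and Mxi1 fell, or 1 rose and 1 fell without stimulated replicate B. P4ha1, a collagen prolyl hydroxylase, was at 165, 160.1 and 170.5 CPM in stimulated iNOS KO and 369, 395 and 391 CPM in stimulated wildtype cells (difference -1.26 ± 0.08).

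**Figure D3:**
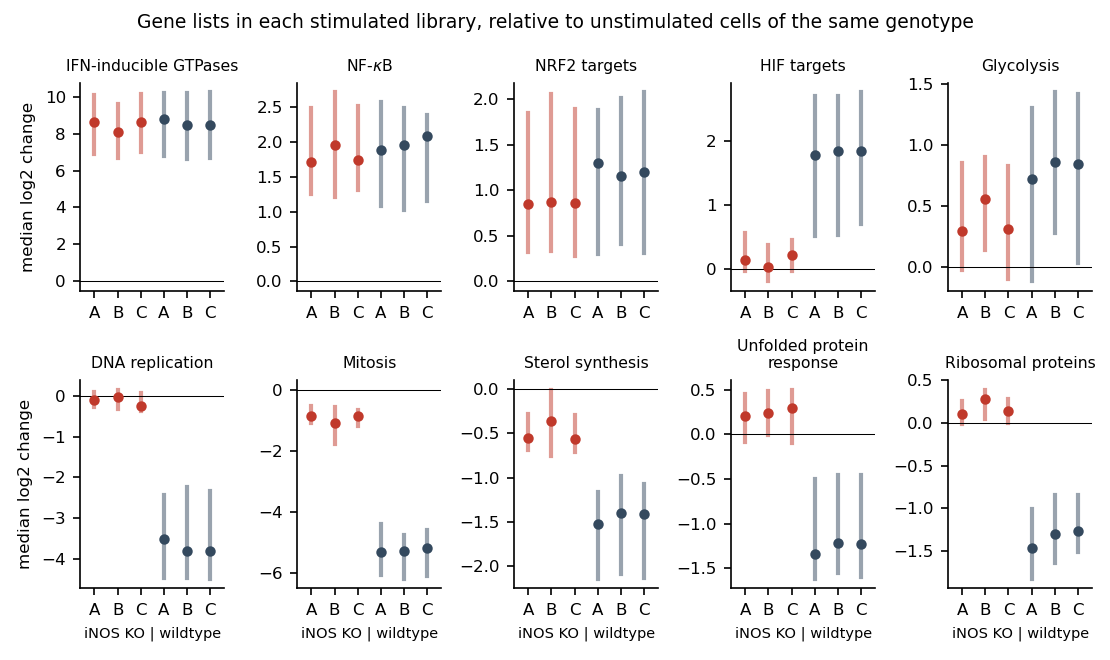
Median log2 change of 10 gene lists in each stimulated library (points, with bars from the lower to the upper quartile over genes) relative to the unstimulated libraries of the same genotype, for iNOS KO (red) and wildtype (dark) replicates A, B and C. In the iNOS KO libraries the replication list lies between -0.24 and -0.02 and the hypoxia-responsive (HIF targets) list between 0.03 and 0.21, whereas in the wildtype libraries they lie between -3.81 and -3.53 and between 1.78 and 1.84.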

How the data were processed

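RNA-seq of unstimulated and stimulated wildtype and iNOS KO cells labelled BMDM was used, with 3 libraries in each of 4 groups taken from the labels. Per the study's methods, the authors filtered reads for adaptors, uncertain bases and quality, aligned them to mm10 with STAR after base recognition with CASAVA, and counted them on genes. The deposited table holds raw counts for 56748 genes. Its positions are not those of GRCm38.p6 (346 of 12932 protein-coding genes start within 1000 bases), so its build is unsettled and positions are given as listed. The table's transcription factor families and gene lengths were used as deposited.

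The 18691 genes whose counts summed to 10 or more were fitted with 1 mean per group over all 12 libraries by edgeR 4.0.16 (TMM, quasi-likelihood F test, 2-sided, R 4.3.3) with Benjamini-Hochberg adjustment. A call needed an adjusted p under 0.05 together with a log2 fold change past 1 in either direction. The difference of responses was a contrast of the same fit. The approximate standard error is the absolute log2 value divided by the square root of its F statistic, and it is unreliable near 0 counts. CPM use TMM library sizes, and RPKM divide them by gene length. Where every library of a group held 3 counts or fewer, the fold is a lower bound against 3 counts per library, which covers counting error only. Totals of 15072109 to 18878107 counts put 3 counts at 0.144 to 0.216 CPM. The fit was tested on simulated data. Figures were drawn with matplotlib 3.10.9.

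Deviations from the group means correlated between unstimulated and stimulated iNOS KO libraries of the same replicate letter at 0.404, 0.497 and 0.121 over 8857 genes, and at -0.132, -0.258 and 0.084 in wildtype cells. Unmatched letters reached 0.402 in iNOS KO cells (A with C) and 0.301 in wildtype cells, and across genotypes matched letters ran from -0.517 to 0.46. The labels do not say what a letter stands for, so a fit with the letter as a block was run as an alternative.

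Named genes were Nos2, Akr1a1, Hmox1 and Gclm, the 15 largest increases and decreases described above, for each list discussed the members with the largest increase, the largest decrease and the highest stimulated CPM, the 10 largest differences of responses in each direction, and the 10 genes with the highest level per length. Names outside this rule were chosen after their values were seen. The gene lists and the comparisons themselves were chosen with earlier results of these data known. Lists are described by counts and medians, without a set test. Some genes that this rule names are not reported here. Columns of the Akr1a1 KO experiment were not used here.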

Additional observations from a re-analysis of the deposited data

Results flagged for a closer look

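The response to stimulation differed between iNOS KO and wildtype cells by the test of the difference itself (edgeR, adjusted p under 0.05 and an absolute difference over 1 on the log2 scale) for 1745 genes above 0 and 1064 below 0, where a positive difference means that the change on stimulation was higher in iNOS KO cells. The named genes that passed are given here with their log2 differences.

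Among cell cycle genes the difference was 11.36 for Cenpf, 8.29 for Pimreg, 7.55 for Pbk, 7.05 for Ccna2, 6.77 for Kif14, 6.21 for Plk1, 6.15 for Cdc20, 6.07 for Ccnb2, 5.93 for Knl1 and 5.73 for Nuf2. It was 4.86 for Top2a, 4.82 for Ccnd2, 3.99 for Rrm1, 3.97 for Aspm and 2.35 for Incenp. Cenpf, Pimreg, Pbk and Kif14 were at 3 counts or fewer in the stimulated wildtype libraries and Ccnd2, Nos2 and Slamf7 in the unstimulated iNOS KO libraries, so their fitted values depend on the prior count. The value was 3.96 for Nos2 and 2.03 for Slamf7, although the level of both after stimulation was lower in iNOS KO than in wildtype cells (means of 171 and 423 CPM for Slamf7).

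For immune genes the difference was 3.91 for Lcn2, 2.69 for Calhm6, 2.59 for Fcgr1, 1.63 for Cxcl11, 1.63 for C3 and 1.59 for Lyz2. In sterol and TCA cycle genes it was 3.91 for Fdps, 1.20 for Insig1, 1.04 for Srebf2 and 1.75 for Idh2. The value for Fdps rests on few counts: it was at 0.0693, 0.338 and 0 CPM in stimulated wildtype libraries. Its mean in stimulated iNOS KO cells was 2.06 CPM. For genes of translation and the cytoskeleton it was 2.61 for Eef1a1, 2.16 for Rps27, 1.44 for Rpsa and 1.30 for Actb. Among the genes with the largest decreases it was 1.67 for Hs3st3b1, 1.23 for Igfbp4, 1.22 for Frmd4b and 1.14 for Rasgrp3, all of which fell less in iNOS KO than in wildtype cells.

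Below 0, it was -5.20 for P4ha2, which had 3 counts or fewer in all iNOS KO libraries, -3.74 for Mmp12, -3.21 for Hbegf, -2.64 for Zfp469, -2.44 for Atp6v0d2 and -2.35 for Ccl5. It was -2.31 for Rgs1, -2.19 for Dusp14, -2.18 for Hyal1, -2.14 for H2bc4 and -2.11 for Rsad2. It was -1.26 for P4ha1 and -1.23 for Hmox1. Groups of 3 libraries were too small for a test of single outlying samples.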

How the results depend on the processing

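The fold limit moved the counts by more than 1.5 times. With none there were 5105 genes up and 4601 down in the iNOS KO response, 6051 up and 5333 down in the wildtype response, and 3732 above and 2885 below 0 for the difference. With a log2 limit of 2 the counts were 1673 and 521, 2253 and 1251, and 678 and 353. Every other alternative kept these counts within 1.5 times: for the iNOS KO response DESeq2 1.42.0 gave 2415 up and 1505 down, its size factors in edgeR 2591 and 1703, filterByExpr 2058 and 1418, no filter 2586 and 1600, the 6 iNOS KO libraries alone 2503 and 1558, and protein-coding genes alone 1953 and 1226. Leaving out single libraries, from 2462 to 2612 genes rose and from 1396 to 1696 fell in iNOS KO cells, 3386 to 3516 rose and 2759 to 2915 fell in wildtype cells, and 1642 to 1795 differences lay above and 965 to 1127 below 0. The share also up in wildtype cells ran from 74.6% to 78.9% with single libraries left out, and was 84.1% under filterByExpr, its highest. The share also down ran from 53.9% to 61.5%, and was 44.3% with a log2 limit of 2 and 69% with no fold limit.

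With the replicate letter as a block, 2528 genes rose and 1582 fell in iNOS KO cells, and within the 6 iNOS KO libraries, an alternative added after the data were seen, 2326 and 1458. Differences numbered 1723 above and 1021 below 0 with the block, 3582 genes rose and 2847 fell in wildtype cells, and the shared percentages were 77.7% and 57.7%. Among named genes the block ended the call of Gapdh, and within the 6 libraries it took the change of Rps27 to 1.03, past the limits.

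The named responses and differences numbered 166. None that passed the limits in the main fit or in an alternative changed its direction between these fits. Changes of direction were not tallied for those that passed in neither, some of which lay close to 0. Of 166, 5 lost their call under some alternative: Gapdh without stimulated replicate B (0.97) and also with unstimulated replicate A, B or C left out (2.48 to 2.60), Tfrc and Nuf2 without stimulated replicate B (-0.82 and -0.86), Cdc20 without stimulated replicate C (-0.95), and Plk1 without that library or unstimulated replicate B (-0.98 each). Tlr4 passed the limits without unstimulated replicate B (-1.04) or stimulated replicate A (-1.12) or C (-1.09), Cd276 (-0.99) under 7 alternatives, Rps27 without unstimulated replicate A (1.03) or C (1.15), Rpl36al without stimulated replicate A (-1.35) and Ftl1 without unstimulated replicate B (1.03). Genes near the count minimum are limited by depth, at 0.144 to 0.216 CPM for 3 counts.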
